A study of Mus musculus with 7 samples.

Results

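The accessible chromatin assigned to 10 genes that start or restrain the mammalian cell cycle was compared between Dll1+ and Dll1- mammary tumor cells. The genes were the D-type cyclin genes Ccnd1, Ccnd2 and Ccnd3, the E-type cyclin gene Ccne1, the kinase genes Cdk4 and Cdk6, and the inhibitor genes Cdkn1a, Cdkn1b, Cdkn2a and Cdkn2b. They were chosen by name. A region belonged to a gene when the protein-coding transcription start nearest to the region's midpoint was one of that gene, and this rule gave 100 of 119215 regions. Nearness to a start does not show that a region acts on that gene.

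Entry into the cell cycle is controlled late in G1. D-type cyclins, which are induced by growth signals, bind CDK4 or CDK6, and E-type cyclins bind CDK2, so that the retinoblastoma protein is phosphorylated and E2F factors are released to switch on genes of DNA replication. The CIP/KIP proteins p21 (Cdkn1a) and p27 (Cdkn1b) bind whole cyclin and kinase complexes, whereas the INK4 proteins p16 (Cdkn2a) and p15 (Cdkn2b) bind CDK4 and CDK6 and keep D-type cyclins off them. In the mammary gland, cyclin D1 is needed for the growth of lobules and alveoli in pregnancy.

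The assay was ATAC-seq, in which a transposase cuts and tags DNA that is not packed in nucleosomes. All cells came from spontaneous mammary tumors of mice with the MMTV-PyMT oncogene transgene, which is active mainly in mammary epithelium, and with an mCherry reporter that marks cells expressing Dll1, a Notch ligand (Py+Tg3+ in the labels). Cells with CD45, CD31 or Ter119 on their surface had been sorted out, and the rest were split into mCherry+ cells, here Dll1+, and mCherry- cells, here Dll1-. The age of the mice is not given in the sources used here. There were 4 tumors and 7 samples, 3 Dll1+ and 4 Dll1-, and 3 tumors gave both. The authors pooled the samples of each group into 1 list of peaks, so every value below stands for a whole group, and no difference could be set against the spread between tumors.

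Each row of a list gave an interval, a summit and the fold enrichment of the reads at the summit over the local background. The Dll1+ list held 132872 rows and the Dll1- list 148923 rows. Reads recovered from the fold and its p-value put the genome background at 3.74 reads for Dll1+ and 7.20 for Dll1-, so the Dll1- list was 1.93 times as deep. All 9 luminal epithelial marker genes searched had a called promoter in both lists. So had 2 of 5 basal genes (Acta2 and Myh11, but not Krt5, Krt14 or Trp63), 1 of 6 immune genes (Cd68, but not Ptprc or Cd3e) and 1 of 5 endothelial genes (Kdr, but not Pecam1 or Cdh5). The called basal, immune and endothelial promoters ranked between percentiles 44.9 and 85.5, and the luminal ones between 18.0 and 95.1. Of 4 erythroid marker genes, 1 had a called promoter in both lists, at percentile 53.9 for Dll1+ and 49.2 for Dll1-. None of these marker lists was thus wholly uncalled in either group. Of 6 fibroblast marker genes, 1 had a called promoter for Dll1+ cells and 3 for Dll1- cells, with Col1a1, Dcn and Thy1 uncalled in both. Their part in the values below was not tested. In such bulk samples, fewer cells with an open region and less opening per cell cannot be told apart.

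Short sequence stretches from some of the regions are printed first, from the GRCm38.p6 genome and, for promoters, from RefSeq. The search covered 100 bases on each side of the strongest summit of a region and, for promoters, 250 bases before to 50 bases after the start, on both strands. The AP-1 motif, TGACTCA or TGAGTCA, is the site of Fos and Jun family dimers. It was in 24 of the 100 regions, among them 8 of the 26 called in the Dll1- list only. The region stretches were picked for AP-1 and for a lower rank or no call in the Dll1+ list, so they do not represent all regions. The following stretches, with AP-1 in capitals, came from regions called in the Dll1- list only.
Ccnd1 at -105.6 kb, chr7:145045450-145045476, plus strand: ggccttgctgcTGAGTCAcaggcgaga
Ccnd2 at -143.0 kb, chr6:127294002-127294030, plus strand: tttacgtgacaTGACTCAtagtgatgtta
Ccnd3 at 18.1 kb, chr17:47523208-47523236, plus strand: gaaggcttagaTGAGTCAcccgacttgct
Ccne1 at 36.7 kb, chr7:38070823-38070851, plus strand: ttgtgtccctgTGACTCAgtacctggcag
Cdkn2b at -40.7 kb, chr4:89351712-89351740, plus strand: agagatgagttTGACTCAttcagaaactc
The next 4 came from regions called in both lists that ranked at least 20 percentile points lower in the Dll1+ list.
Ccnd1 at -85.7 kb, chr7:145025680-145025707, plus strand: gagcaggcctgTGAGTCAtgcctgctca
Cdk6 at -42.5 kb, chr5:3301290-3301318, plus strand: aggctgcatgcTGACTCAgatgagcaagg
Cdkn1a at -8.78 kb, chr17:29082197-29082225, plus strand: atcctgtcgggTGACTCAgcagaaaaaaa
Cdkn2b at -52.3 kb, chr4:89363323-89363351, plus strand: gatcacaagtgTGACTCAccaccacaagt
Distances here and below run from the nearest start site of the gene to the midpoint of the region, and negative distances lie upstream.

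RefSeq promoter sequences were found for 8 of the 10 genes, 11 promoters in all, and not for Ccnd1 and Ccnd2. The Cdk4 promoter held the E-box CACGTG, a site of Myc and related factors, 4 times, as did 0.0244% of all 32851 promoters (at least 4). The 4 stretches, with the E-box in capitals, were as follows.
Cdk4, chr10:127063352-127063379, plus strand: tggcagccagtCACGTGccacacagcgt
Cdk4, chr10:127063406-127063433, plus strand: agtcaaggggtCACGTGggatagcaaca
Cdk4, chr10:127063426-127063453, plus strand: tagcaacaggtCACGTGgccgtcagggc
Cdk4, chr10:127063513-127063540, plus strand: agggtgaagatCACGTGtccagaacgtc
The Cdk6 promoter held 1 E-box, a motif in 7.15% of all promoters. The Cdkn2b promoter held the cAMP response element TGACGTCA, found in 1.79% of promoters, and the upstream Cdkn2a promoter held an E2F motif (TTTCCCGC, with TTTCGCGC, TTTGCCGC and TTTGGCGC also searched), found in 2.26%.
Cdkn2b, response element in capitals, chr4:89311060-89311089, minus strand: tatttgtctcaTGACGTCAccaagtgtggg
Cdkn2a, E2F motif in capitals, chr4:89294700-89294729, minus strand: ctctgggaagcTTTCCCGCgcgactgggga
AP-1 was in none of the 11 promoters and in 5.20% of all promoters. The GC box GGGCGG, the site of Sp1, was in 9 of the 11 and in 35.7% of all. A match is a description of the letters and shows no binding.

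Of the 100 regions, 69 were called in both lists, 5 in the Dll1+ list only and 26 in the Dll1- list only. The shares were 5% (Wilson 95% interval 2.15 to 11.2) for Dll1+ only and 26% (18.4 to 35.4) for Dll1- only. Over all 119215 regions they were 9.01% and 24.6%, so the 10 genes together lay close to the background on the Dll1- side, and the interval on the Dll1+ side also held the background. The intervals cover counting error only, and neighboring regions are not independent. The regions called in 1 list were weak: their median fold ranked at percentile 37.2 of its list for the Dll1- only regions and 20.2 for the Dll1+ only regions, against 76.0 and 79.8 for the shared regions in the Dll1+ and Dll1- lists. When the reads of the Dll1- list were scaled down to the depth of the Dll1+ list, all 26 Dll1- only regions kept a -log10 p-value above 2.00, the lowest in the Dll1+ list, as did 99.7% of all Dll1- only regions. Of the 26, 22 lay above 4.32, the value that 95% of Dll1+ rows exceed, against 83.5% of all Dll1- only regions, so the members were like other regions in this.

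Over all regions, 24.6% were called in Dll1- cells only and 9.01% in Dll1+ cells only, and the counts by role stand beside these shares. The 4 cyclin genes had 39 regions, of which 23 were shared, 16 (41.0%, 27.1 to 56.6) were called in Dll1- cells only and 0 in Dll1+ cells only, a count that allows a share of up to 8.97%. The 2 kinase genes had 20 regions, with 12 shared, 4 in Dll1+ cells only and 4 in Dll1- cells only. Of the 20, 19 lay at Cdk6, with every kinase region called in 1 list, so these counts describe 1 locus. The 4 inhibitor genes had 41 regions, with 34 shared, 1 in Dll1+ cells only and 6 (14.6%, 6.88 to 28.4) in Dll1- cells only. The Dll1- only interval of the inhibitor genes held the 24.6% of all regions, and that of the cyclin genes lay above it. Most of the regions called in 1 list were weak. Of the 16 cyclin regions 4, and of the 6 inhibitor regions 1, reached the median fold of the Dll1- list, as did 22.3% of all Dll1- only regions, and of the 5 Dll1+ only regions 0 reached the median fold of the Dll1+ list. With rows at or above the median fold of their list, Dll1- only regions were 8 for the cyclin genes, 2 for the kinase genes and 6 for the inhibitor genes. The cyclin and inhibitor counts then lay close together. With equal numbers of rows in the lists, the kinase genes had 2 Dll1- only regions in place of 4. The absence of Dll1+ only regions was not limited to the cyclin genes, since 8 of the 10 genes had none. The roles were compared by these counts alone, without a test, because the regions of a gene share its locus.

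**Figure D1:**
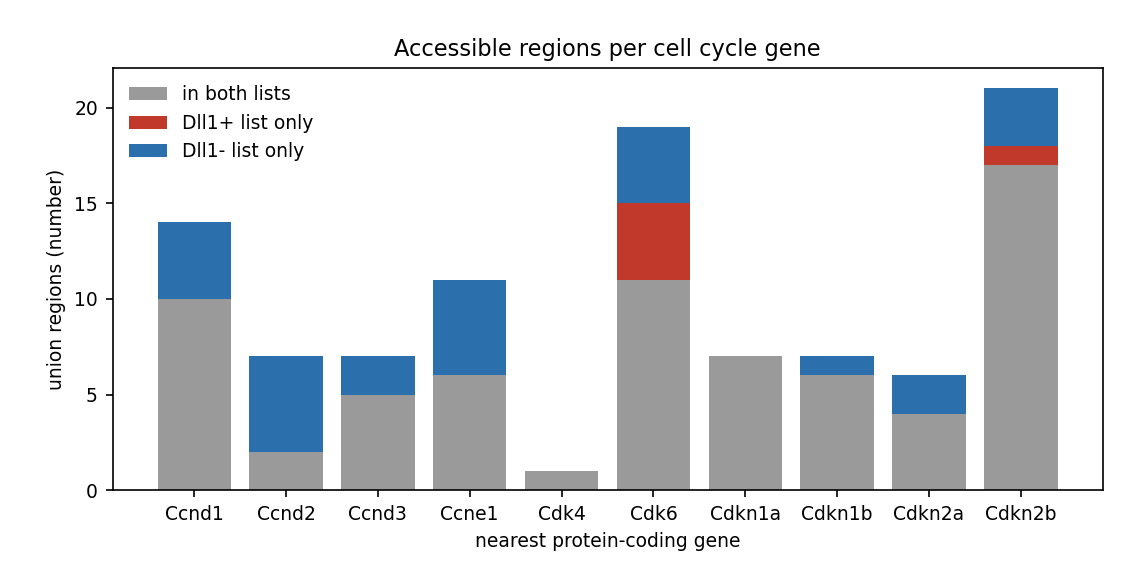
Stacked bars give the number of regions assigned to each gene, split by whether they were called in both lists (gray), in the Dll1+ list only (red) or in the Dll1- list only (blue). Red appears at Cdk6, with 4 regions, and at Cdkn2b, with 1, and each of the 4 cyclin genes carries blue.

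For the 69 shared regions, strength was compared by rank, as the percentile of the fold enrichment within each list. A rank difference is the Dll1+ percentile minus the Dll1- percentile, and 20 points was the size called. By that rule 3 regions ranked higher in Dll1+ cells and 11 in Dll1- cells, against 6.39% and 11.1% of all 79153 shared regions (4.35% and 15.9% of the members). When percentiles were taken among shared regions alone, 5 member regions ranked higher in Dll1+ cells and 10 in Dll1- cells, with 9.77% and 9.44% of all shared regions. The median difference of the members was -1.73 points (SD 16.6) and that of all shared regions -1.67 (SD 15.1). The medians thus lay close together. Per gene, the median differences ran from -11.8 at Ccnd1 to 7.55 at Cdk4, which had 1 region. Single regions ran from -53.7 to 27.6 within Cdk6 and from -39.6 to 32.7 within Cdkn2b.

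**Figure D2:**
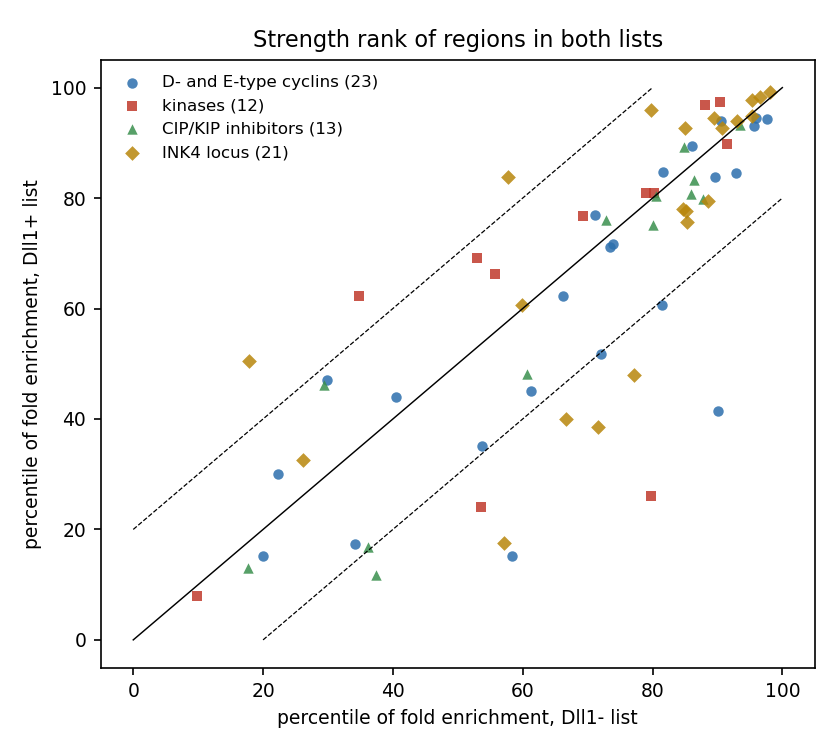
Each point is 1 of the 69 shared regions, with its percentile of fold enrichment in the Dll1- list on the x axis and in the Dll1+ list on the y axis, and with color and shape giving the role of the gene. Dashed lines mark 20 points to each side of equality, with 3 points above the upper line and 11 below the lower one, among them 4 of Ccnd1 and 4 of Cdkn2b.

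A second measure used the recovered reads at the strongest summit. It was the log2 ratio of Dll1+ to Dll1- reads after scaling for the depth ratio, centered so that the median of all shared regions was 0, and it carries an exact binomial 95% interval for counting error. The quartiles of all shared regions were -0.32 and 0.32. The interval lay wholly below 0 in 15.8% of all shared regions and wholly above 0 in 16.4%. The median ratio was -0.28 over the 23 shared cyclin regions, with 10 intervals below 0 and 0 above. It was 0.42 over the 12 shared kinase regions, 11 of them at Cdk6, with 1 interval below and 5 above. It was 0.036 over the 34 shared inhibitor regions, with 4 below and 9 above, and it turned to -0.037, with 5 below and 6 above, when each gene was centered on the regions within 1 Mb. Without any centering the inhibitor median was 0.28, with 1 interval below 0 and 16 above, and the cyclin median was -0.04, with 4 below and 2 above, so the size of the cyclin difference depends on where equal accessibility is set. By the folds, which are taken over the local background, the centered medians were -0.08 for the cyclin genes and -0.0068 for the inhibitor genes.

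**Figure D3:**
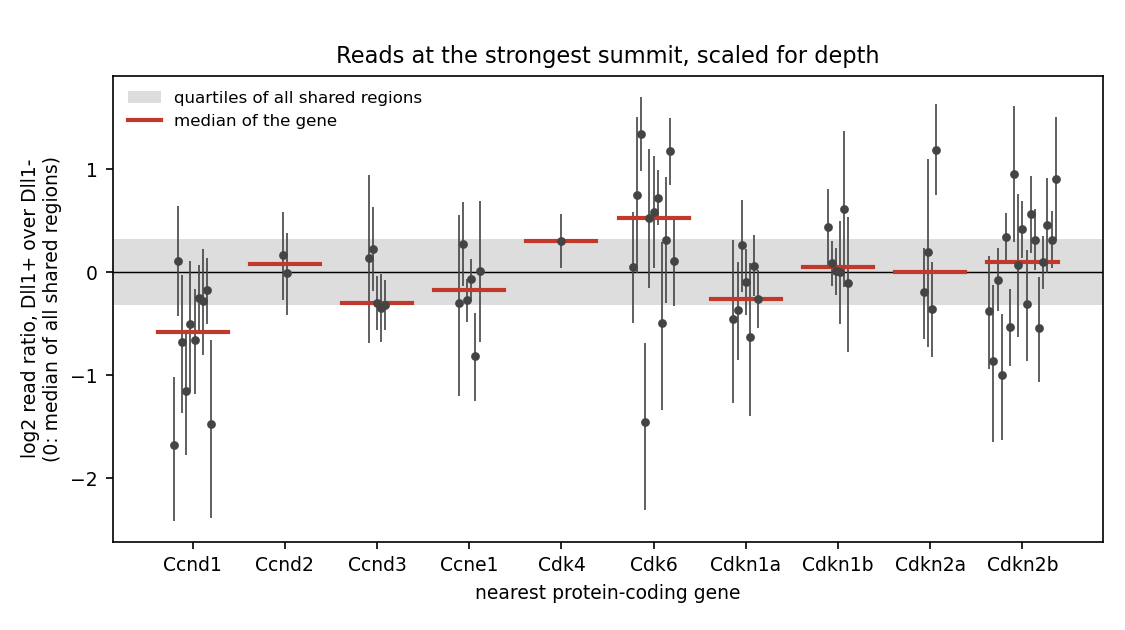
Points give the centered log2 ratio of Dll1+ to Dll1- reads at each of the 69 shared regions, ordered by distance from the start within each gene, and vertical lines give the exact binomial 95% interval of counting error. Red bars are medians per gene, -0.58 for Ccnd1 and 0.52 for Cdk6, and the gray band spans the quartiles of all shared regions, -0.32 to 0.32.

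Ccnd1, which encodes cyclin D1, showed the lowest median ratio of the 10 genes. It had 14 regions on chromosome 7, of which 10 were shared, 4 were called in Dll1- cells only and 0 in Dll1+ cells only. The median read ratio was -0.58, with 9 of 10 regions below 0 and 5 intervals wholly below 0. The median of the 90 other shared regions within 1 Mb was -0.10, so the lower Dll1+ reads at Ccnd1 were not seen to the same size across the neighborhood. Without centering the Ccnd1 median was -0.34, with 3 intervals below 0 and 0 above. By the folds the centered median was -0.15, with 7 of 10 below 0. Of its shared regions, 4 ranked at least 20 points lower in Dll1+ cells and 0 higher.

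The most upstream shared region of Ccnd1, at -103.6 kb (chr7:145043310-145043632, intergenic), showed the largest rank difference at the gene. It held 22 reads at percentile 41.4 in Dll1+ cells and 115 reads at percentile 90.2 in Dll1- cells, where it was the strongest region of the gene. The rank difference was -48.8 points and the read ratio -1.68 (-2.41 to -1.01). The region was thus among the strongest of the Dll1- list and below the middle of the Dll1+ list. Regions at -54.3 kb, with 31 and 112 reads, and at -85.7 kb, with 28 and 73 reads, held AP-1 and differed by -20.7 and -20.4 points. These 2 lay just past the 20 points called, and the Ccnd1 region at -3.62 kb, with a difference of -18.7, lay just short of them.

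At the 3′ end of Ccnd1, at 10.2 kb and in an exon of the neighboring gene LTO1, a region held 15 Dll1+ reads and 68 Dll1- reads. It ranked at percentile 15.1 against 58.4, a difference of -43.3, with a ratio of -1.48. The promoter region itself (chr7:144939698-144939946) was weak and similar in both lists, at percentiles 15.1 and 20.0, with 49 and 97 reads and an interval of -0.81 to 0.23 around its ratio of -0.28. The strongest region of Ccnd1 in the Dll1+ list was at -91.1 kb, at percentile 76.9 there and 71.2 for Dll1-, and it was the single shared region of the gene with a ratio above 0, at 0.11. Differences at Ccnd1 therefore lay in upstream and 3′ regions, and 2 regions near the start, at -1.70 kb and 2.33 kb, differed by -2.31 and -2.22 points. Of the 4 Dll1- only regions, the highest in fold lay at -127.8 kb, with 38 reads at percentile 47.3.

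Ccnd2, the cyclin D2 gene on chromosome 6, had 7 regions, and 5 of them were called in Dll1- cells only. Of the 5, 1 reached the median fold of the list and 3 lay within 50 kb of a start. Its promoter region (chr6:127150947-127151273), which overlaps the annotated starts of the coding transcripts, was one of these, with 59 Dll1- reads over a local background of 16.0 and a fold of 3.52 at percentile 27.7. Of all 15152 promoter regions in either list, 7.93% were called in the Dll1- list only. Scaled to the Dll1+ depth, the Ccnd2 promoter kept a -log10 p-value of 9.46. Its call was a weak one, low in the ranking of its list.

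The strongest Dll1- only region of Ccnd2 lay in its intron at 8.58 kb, with 50 reads at percentile 61.9. The 2 shared regions were strong and alike in both lists. That at -115.3 kb ranked at 89.4 and 86.1 with 79 and 115 reads, and that in the intron at 3.15 kb ranked at 84.6 and 81.6 with 87 and 143 reads. Their ratios were 0.16 and -0.01, both with intervals across 0. Ccnd2 thus combined 2 like shared regions with a promoter that was not called in the Dll1+ list.

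Ccnd3, which encodes cyclin D3, had 7 regions on chromosome 17, with 5 shared and 2 in Dll1- cells only. The promoter at the first start (chr17:47504828-47505324) ranked at 30.1 in Dll1+ cells and 22.3 in Dll1- cells, with 89 and 124 reads. The region at an internal start (chr17:47593053-47594048) was much stronger, at 93.0 and 95.7, with 184 and 369 reads and a ratio of -0.30 (-0.56 to -0.04). The intron regions at 3.10 kb and 6.36 kb had ratios of -0.34 and -0.32, and their intervals also lay below 0. Without centering, all 3 intervals crossed 0, and that at the internal start ran from -0.32 to 0.20. These are small differences, within or next to the quartiles of all shared regions, and no Ccnd3 region passed 20 points of rank. The Dll1- only region at 18.1 kb, whose AP-1 stretch is printed above, was the strongest of that kind at a cyclin gene, with 53 reads at percentile 64.7.

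Ccne1, which encodes cyclin E1, had 11 regions on chromosome 7, with 6 shared and 5 in Dll1- cells only. Of the 5, 1 reached the median fold of the list. Its promoter (chr7:38107236-38108179) was among the strongest regions of both lists, at percentiles 94.3 and 97.7, with 289 and 569 reads. The ratio there was -0.27 (-0.48 to -0.07). A broad region downstream at 22.1 kb was as strong, at 94.5 and 95.9, with 315 and 539 reads and a ratio of -0.07. The region at 30.2 kb held 64 and 183 reads, with a ratio of -0.81 (-1.25 to -0.39), the lowest at Ccne1, although its rank differed by -8.18 points. The strong regions of Ccne1 were thus called in both groups, and the 5 Dll1- only regions were weaker, with the highest of them, at 36.7 kb, at percentile 51.6 with AP-1. The region at 33.5 kb had the largest rank difference of any cyclin region in the Dll1+ direction, 17.2 points, short of the size called.

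Cdk4, whose product binds the D-type cyclins, had 1 region, its promoter (chr10:127063112-127063924). The gene lies between March9 and Tspan31 in a tightly packed part of chromosome 10, where 5.07 kb of sequence was nearer to its starts than to those of its neighbors. The promoter ranked at 76.8 in Dll1+ cells and 69.2 in Dll1- cells, with 209 and 276 reads. The ratio was 0.30 (0.04 to 0.57), and the rank difference was 7.55 points. The promoter with the 4 E-boxes was thus open in both groups, with scaled reads somewhat higher in Dll1+ cells.

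Cdk6, the other partner of the D-type cyclins, differed from the cyclin genes. It had 19 regions on chromosome 5, of which 11 were shared, 4 were called in Dll1+ cells only and 4 in Dll1- cells only. No protein-coding start lay between Cdk6 and the chromosome end upstream, so a stretch of 3444 kb was nearest to its starts. Its regions lay from -191.5 to 89.0 kb. The median ratio was 0.52, with 9 of 11 regions above 0, 4 intervals above 0 and 1 below. The median of 27 other shared regions within 1 Mb was 0.11. The folds gave a centered median log2 ratio of 0.17, with 8 of 11 above 0. Cdk6 therefore held 4 of the 5 Dll1+ only regions of all 10 genes and the highest median ratio. Of those 4, 0 reached the median fold of the list and 1 lay within 50 kb of a start. With equal numbers of rows, its Dll1- only regions were 2.

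The strongest Cdk6 region in the Dll1+ list lay upstream at -61.5 kb (chr5:3281903-3282800), in an intron of the noncoding gene Gm36548. It held 166 Dll1+ reads and 107 Dll1- reads, more in the shallower list, with a ratio of 1.34 (0.98 to 1.70) and percentiles of 97.4 and 90.4. The intron region at 55.8 kb was alike, with 188 and 136 reads, a ratio of 1.17 and percentiles of 96.9 and 88.2. Rank differed by 7.04 and 8.70 points. The local backgrounds, 7.80 and 7.20 at -61.5 kb and 9.31 and 10.3 at 55.8 kb, were also closer than the depth ratio, and the folds were 19.0 against 13.2 and 18.3 against 12.2. The promoter (chr5:3343445-3344803) held 233 and 230 reads, a ratio of 0.72 (0.45 to 0.99), at percentiles 80.8 and 79.0. The reads around the promoter were close in number too, with local backgrounds of 21.2 and 24.2 and folds of 10.5 and 9.18, so the ratio there was not limited to the promoter.

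By rank, 1 Cdk6 region was called higher in Dll1+ cells and 2 lower, at -42.5 kb and at 11.4 kb. The intron region at 11.4 kb ranked at 24.0 against 53.5, a difference of -29.5, with 20 and 46 reads. The region at -42.5 kb held AP-1 and the RUNX motif TGTGGT. There were 17 Dll1+ reads at percentile 26.1 and 76 Dll1- reads at percentile 79.8, a difference of -53.7 points, the largest of all 69 shared regions. Its ratio was -1.46 (-2.31 to -0.68). The region at -73.9 kb ranked 27.6 points higher in Dll1+ cells, at 62.3 against 34.7, with 32 and 31 reads. Upstream of Cdk6, regions that ranked higher and lower in Dll1+ cells thus lay in the same stretch, from -73.9 to -42.5 kb. The Dll1+ only regions, at -71.1, -53.8, 13.4 and 61.0 kb, were weak, with 12 to 19 reads, and the best of them ranked at percentile 32.5. The Dll1- only regions, all in the gene's introns from 19.4 to 54.5 kb, held 20 to 49 reads, and the strongest, at 54.5 kb, ranked at 44.8.

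**Figure D4:**
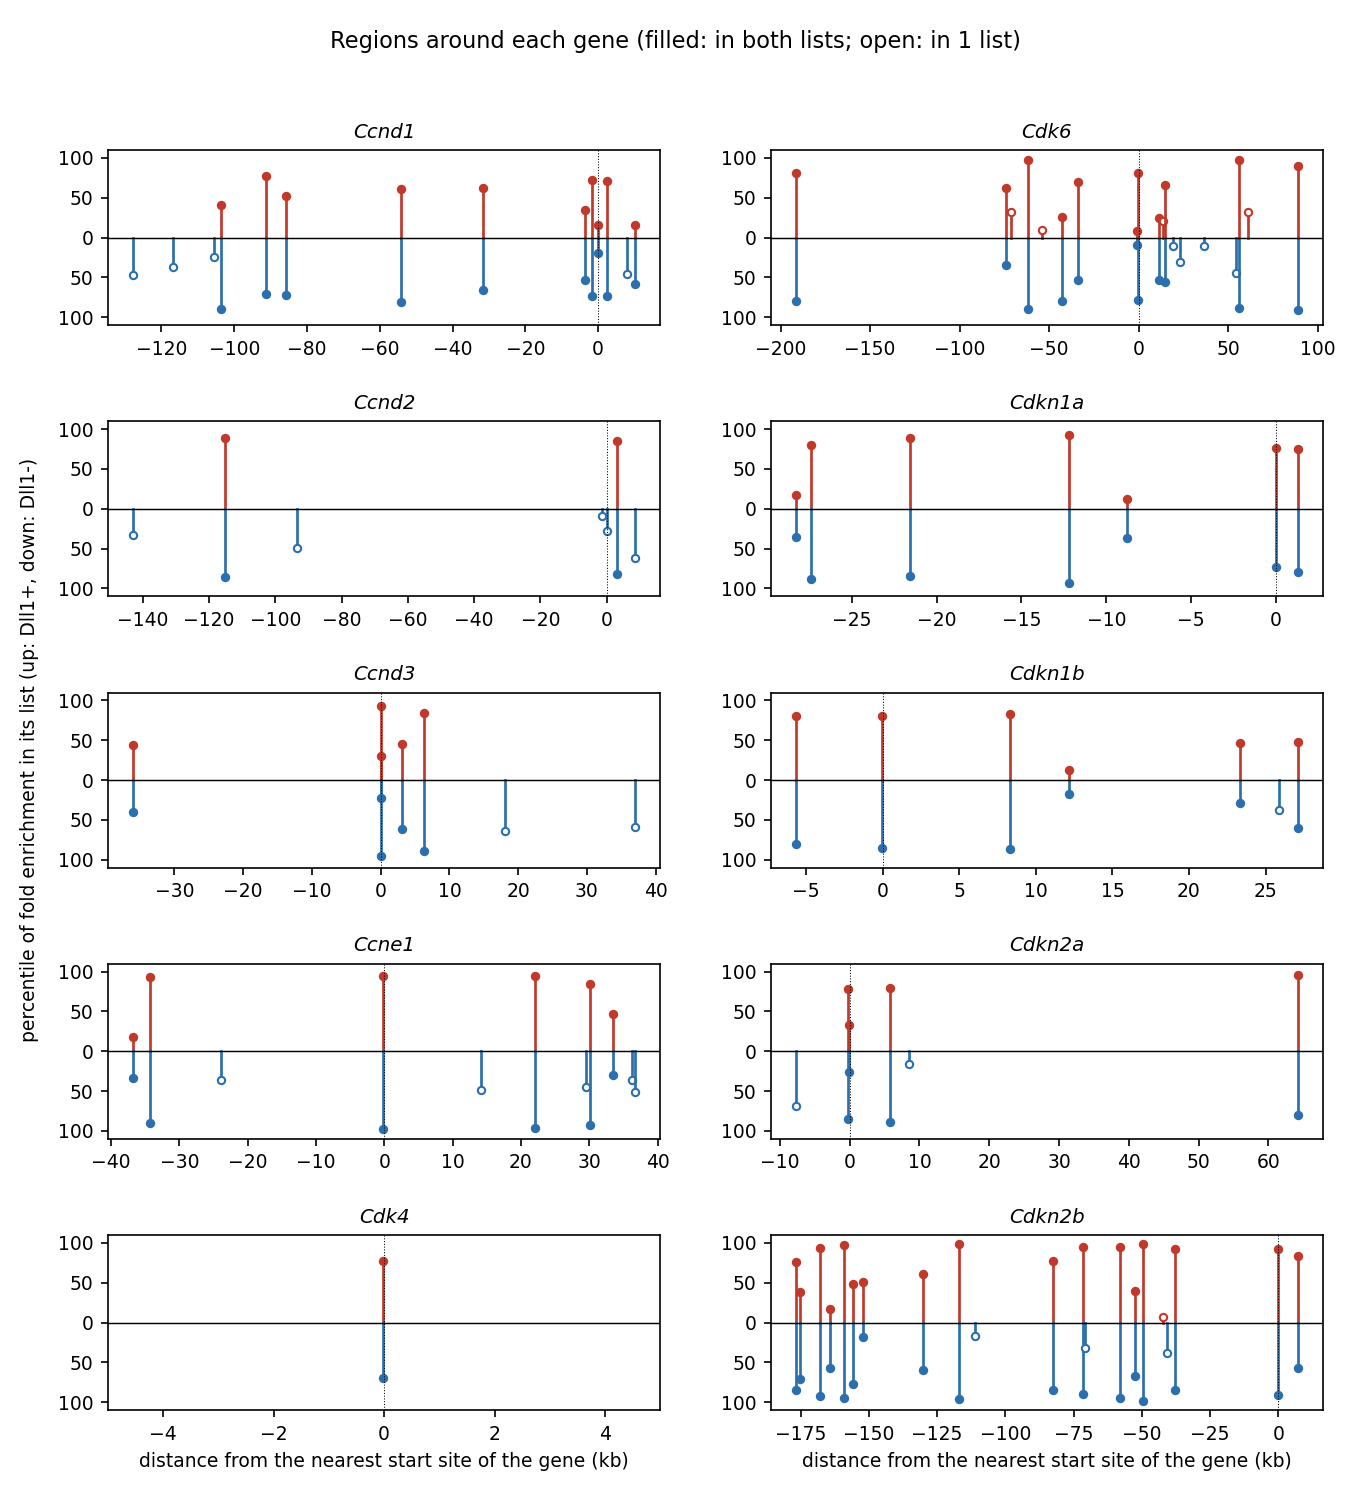
Each panel plots the regions of 1 gene by distance from the nearest start site in kb (x axis), with the percentile of fold enrichment in the Dll1+ list drawn upward in red and in the Dll1- list downward in blue, and with open circles for regions called in 1 list. At Cdk6 4 open red circles stand beside 4 open blue ones, whereas the 4 cyclin genes show open blue circles and no open red ones.

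Cdkn1a, which encodes p21, the inhibitor induced by p53, had 7 regions on chromosome 17, and all 7 were shared. The promoter at the main start (chr17:29093467-29094049) ranked at 76.0 in Dll1+ cells and 72.8 in Dll1- cells, with 159 and 248 reads and a ratio of 0.06 (-0.23 to 0.36). The strongest region lay at -12.2 kb, over the start of Trp53cor1, the gene of the long noncoding RNA lincRNA-p21, at percentiles 93.2 and 93.5 with 129 and 224 reads. Both were thus at nearly the same rank in both lists. Weaker upstream regions with AP-1 ranked lower in Dll1+ cells. The region at -8.78 kb ranked at 11.8 against 37.4, a difference of -25.5, with 23 and 58 reads and a ratio of -0.63 (-1.39 to 0.09). The region at -28.3 kb, at 16.9 against 36.1, differed by -19.2, just short of the size called, with 21 and 47 reads and a ratio of -0.46 (-1.27 to 0.31). The upstream start of Cdkn1a was called in neither list, and its RefSeq promoter was the one of the 11 with a p53 motif, which 0.0731% of all promoters held.

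Cdkn1b, which encodes p27, had 7 regions on chromosome 6, with 6 shared and 1, at 25.8 kb, in Dll1- cells only. Its promoter (chr6:134919949-134920804) ranked at 80.8 and 85.9, with 285 and 437 reads and a ratio of 0.09 (-0.13 to 0.31). The region at 8.29 kb, over the start of the noncoding RNA gene Lockd, was as strong, at 83.3 and 86.3, with 252 and 408 reads and a ratio of 0.01. The region at -5.66 kb held 113 and 136 reads, and its interval, 0.06 to 0.81, lay above 0. No Cdkn1b region passed 20 points of rank, and the differences ran from -12.4 to 16.7. The Dll1- only region held 41 reads at percentile 37.7 and a NF-kB motif.

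Cdkn2a encodes p16 from its downstream start and the p53 activator p19Arf from its upstream start. It had 6 regions on chromosome 4, with 4 shared and 2 in Dll1- cells only. The upstream start (chr4:89294302-89295588) ranked at 78.0 in Dll1+ cells and 84.8 in Dll1- cells, with 68 and 127 reads. The downstream start (chr4:89282049-89282468) was weaker, at 32.5 and 26.1, with 19 and 27 reads, and neither interval left 0. The more open start in both groups was thus the upstream one. A region at 64.2 kb, downstream of the gene, was the strongest of Cdkn2a in the Dll1+ list, at 95.9 against 79.8, with 106 and 76 reads and a ratio of 1.18 (0.75 to 1.63). At -7.71 kb, between Cdkn2a and Cdkn2b, a region with 58 reads at percentile 68.8 was the strongest of the 26 Dll1- only regions.

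Cdkn2b, which encodes p15, an inhibitor induced by TGF-beta, had the most regions, 21, over a stretch of 196.8 kb that was nearest to its start. Of these 17 were shared, 1 was called in Dll1+ cells only and 3 in Dll1- cells only. The promoter (chr4:89310472-89311449) ranked at 92.6 and 90.7, with 194 and 254 reads and a ratio of 0.32 (0.04 to 0.59). Upstream, the region at -49.4 kb was the strongest of all 100 regions in both lists, at 99.2 and 98.1, with 217 and 331 reads. Regions at -117.1 and -159.0 kb, both with AP-1, ranked at 98.2 and 97.7 in Dll1+ cells and at 96.5 and 95.4 in Dll1- cells. Ranks so near the top of a list can differ little. The read ratios of these 2 regions were 0.42 (0.13 to 0.70) and 0.35 (0.12 to 0.57).

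The weaker Cdkn2b regions differed in both directions. At -164.3 kb percentile 17.6 stood against 57.2, a difference of -39.6, with 31 and 101 reads. Regions at -175.1, -155.8 and -52.3 kb, all 3 with AP-1, differed by -33.0, -29.1 and -26.6 points. In the other direction the region at -152.3 kb, in an exon of the noncoding gene Gm12610, ranked at 50.6 against 17.8, 32.7 points higher in Dll1+ cells, with 45 and 38 reads. The region at 7.22 kb ranked at 83.8 against 57.7, 26.1 points higher, with 53 and 46 reads. These 2 regions and the Cdk6 region at -73.9 kb were the 3 that ranked at least 20 points higher in Dll1+ cells. Over the gene, 7 intervals of the read ratio lay above 0 and 4 below, with a median of 0.10, against 0.12 for 64 other shared regions within 1 Mb.

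Across the genes, AP-1 was more frequent in shared regions ranked at least 20 points higher in Dll1- cells than in other shared regions. It was in 8 of the 26 Dll1- only regions (30.8%) and in 0 of the 5 Dll1+ only regions, against 30.4% and 4.40% of all such regions. Among the shared members, AP-1 was in 7 of the 11 regions that ranked higher in Dll1- cells, in 9 of the 55 that passed neither limit and in 0 of the 3 that ranked higher in Dll1+ cells. The same classes over all shared regions held AP-1 in 34.8%, 13.7% and 3.87%. Within 50 bases of the summit the member counts were 5, 5 and 0, against 27.0%, 9.96% and 2.49% of all. The pattern at the 10 genes therefore ran in the direction seen over all regions and is not particular to them. The RBPJ motif of the Notch effector, CGTGGGAA or TGTGGGAA, was in 0 of the 100 regions and in 2.07% of all regions, and no more can be read from so few. A NF-kB motif was in 4 of the 100 regions and in 3.02% of all regions.

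The wider cell cycle machinery gave a background for the 10 genes. Of 53 other cell cycle genes listed, 52 had regions, 322 in all, with 214 shared, 32 in Dll1+ cells only and 76 in Dll1- cells only. The Dll1+ share of regions called in 1 list was 29.6% (21.8 to 38.8), against 16.1% (7.09 to 32.6) for the 10 genes and 26.8% for all regions. Of the 52 genes, 23 had more Dll1- only than Dll1+ only regions, 5 had the reverse and 24 had equal numbers, 19 of these with no region of either kind. Mki67, the gene of the proliferation marker Ki-67, had the most regions, 36, with 16 Dll1- only and 5 Dll1+ only, a Dll1+ share close to that of all regions. Cdkn1c, the remaining CIP/KIP gene, had 4 Dll1- only and 0 Dll1+ only regions among 15, as did E2f7, an E2F repressor, among 11. Over all regions, 24.6% were Dll1- only and 9.01% Dll1+ only, and counts this small per gene are not read further. The genes with more Dll1+ only regions were Rb1 and Rbl2, of the retinoblastoma family, with Ccnb1, Lin54 and Wee1, each by 1 region or, at Rbl2, by 2.

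The genes of the MCM helicase, Mcm2 to Mcm7, which opens DNA for replication, had 1 to 4 regions each and median ratios from -0.30 at Mcm7 to 0.28 at Mcm2. Dll1- only regions among them were 1 at Mcm3 and 1 at Mcm7, with 0 in Dll1+ cells only, too few to set against the 24.6% and 9.01% of all regions. Over all 214 shared regions of the wider list, 6 (2.80%) ranked at least 20 points higher in Dll1+ cells and 21 (9.81%) in Dll1- cells, and the median ratio was -0.06.

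At the level of promoters, the 10 genes had 15 groups of coding start sites. Of these, 11 were called in both lists, 1, that of Ccnd2, in the Dll1- list only, and 3 in neither, namely the upstream and the downstream start of Cdkn1a and the last start of Ccnd3. The promoters of Cdk4, Cdk6 and Cdkn2b had intervals of the ratio above 0, those of Ccne1 and the internal start of Ccnd3 had intervals below 0, and the other 6 crossed it. Without centering, 6 intervals lay above 0 and 0 below, since those of Ccne1 (-0.24 to 0.17) and the internal Ccnd3 start then crossed 0, so the calls below 0 rest on the centering. Of the 14 regions past 20 points, 0 was a promoter, and 11 of the 69 shared regions were promoters. The share of all promoters past 20 points was not computed, so no trait of promoters is read from this count.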

How the data were processed

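ATAC-seq peak lists of Dll1+ and Dll1- MMTV-PyMT tumor cells were analyzed. The authors processed the samples of each group together with the ENCODE ATAC-seq pipeline, on mm10/GRCm38 per the labels, and deposited 1 optimal peak list per group. The aligner, the caller settings and the rule by which rows were retained are not given in the sources used here. Each deposited row held a fold enrichment ratio, a -log10 p-value and a -log10 q-value, as the authors' caller wrote them, a summit, and a score per the file columns that was not used. No counts per sample were analyzed here.

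Overlapping or touching rows of both lists were joined into 119215 regions, and each took its strongest row per list. Regions were assigned to the nearest protein-coding start (GENCODE M21, basic). Reads and background were recovered with (reads + 1)/(background + 1) as the fold and a Poisson tail as the p-value, and 1 Dll1- row could not be solved. Read ratios were scaled by the ratio of the lowest backgrounds and centered by 0.24 on the log2 scale. Of all regions, 0 passed a chromosome end. Promoters spanned 1000 bp upstream to 100 bp downstream of a start, and starts within 500 bp formed a group. NF-kB and p53 motifs were searched by their consensus, with up to 13 bases between its repeats for the latter. Promoter sequences were RefSeq's for GRCm38.p6.

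The 2 pooled lists allow no test, and no p-value was computed. Wilson and exact binomial 95% intervals cover counting error only, since these reads carry no molecular identifiers and are not independent molecules. The members, gene lists, named regions (promoters, the strongest regions and the largest rank differences per gene, with others chosen after their values were seen) and settings were chosen with earlier results of these data known. Python 3.11.15, pandas 2.3.3, numpy 2.4.6, scipy 1.17.1 and pysam 0.24.0 were used, and functions were tested on simulated data. Settings tried were stricter and equal-number lists, depth scaling, other overlap, placement and distance rules, other ranks and other centerings.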

Additional observations from a re-analysis of the deposited data

How the results depend on the processing

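No paired analysis was possible because each list pools the samples of its group, and for the same reason no replicate could be left out. With rows at or above the median fold of their list, 45 regions of the 10 genes were shared, 2 were called in Dll1+ cells only and 16 in Dll1- cells only. These counts hold regions whose weaker row in the other list was dropped, since 5 of the 26 Dll1- only and 0 of the 5 Dll1+ only regions reached the median fold. Within 50 kb of a start, 45 were shared and 2 were called in Dll1+ cells only. Regions that ranked higher in Dll1+ cells, and those higher in Dll1- cells, numbered 5 and 10 with ranks among shared regions, 8 and 16 at 10 points (11.6% and 23.2%, against 15.2% and 25.1% of all), and 8 and 10 at 1.5 times the depth-scaled reads (11.6% and 14.5%, against 12.5% and 12.3%). Equal numbers of rows, depth scaling, an overlap of 50% of the shorter row and placement by summit left the counts over the 10 genes within 1.5 times, and equal numbers of rows took the Dll1- only regions of Cdk6 from 4 to 2. The shared regions with AP-1 fell from 16 to 10 with 50 bp each side of the summit. Of the 16 Dll1- only regions of the cyclin genes, 11 lay within 50 kb. With rows at or above the median fold the cyclin genes had 8 Dll1- only regions and the inhibitor genes 6, so the contrast between these roles depends on weak rows. Dll1+ only regions of the cyclin genes were 0 under each of these settings. Of the 4 Dll1+ only regions of Cdk6, 1 lay within 50 kb.

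Centerings and the use of folds in place of reads, both added after the data were seen, moved the median ratio. Without centering it was -0.34 for Ccnd1, 0.76 for Cdk6 and -0.04 for the cyclin genes, whose intervals then lay below 0 in 4 regions and above in 2, and 0.28 for the inhibitor genes, with 1 below and 16 above. Centered on regions within 1 Mb it was -0.48, 0.41 and -0.26, and for the inhibitor genes it turned from 0.036 to -0.037 (5 intervals below 0 and 6 above), so no direction can be given for them. By the deposited folds, it was -0.15 for Ccnd1, 0.17 for Cdk6, -0.08 for the cyclin genes and -0.0068 for the inhibitor genes. Depth limits the weakest regions, which held as few as 12 reads in Dll1+ cells and 20 in Dll1- cells.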
